A study of Mus musculus with 12 samples.

Results

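The Hox genes encode transcription factors that bind DNA through a homeodomain and lie side by side in clusters. Each gene carries a cluster letter and a paralog number. During development the genes with low numbers, at the 3′ end of a cluster, act toward the head, and those with high numbers, at the 5′ end, act in the lower trunk and the limbs. Adult cells often keep the set of active Hox genes of the body region from which they came. All genes of the deposited table with a symbol made of Hoxa, Hoxb, Hoxc or Hoxd and a number were taken, without use of their values. They were 39 of 46983 genes, with 11 in the Hoxa cluster, 10 in Hoxb, 9 in Hoxc and 9 in Hoxd.

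Their RNA was followed in C2C12, a line of mouse muscle precursor cells that was derived from thigh muscle and that fuses into myotubes during differentiation. The groups were WT_0d and WT_5d, which are wild-type cells titled PbIP on day 0 and day 5 of differentiation, and PPARγ/+_0d and PPARγ/+_5d, which are cells on the same days that overexpress PPARγ, a nuclear receptor of the adipocyte programme. Each of the 4 groups held 3 libraries. In the PPARγ/+ cells the PPARγ coding sequence was brought in by a PiggyBac vector (PB-IP) and the transfected cells were selected with puromycin, and both lines were maintained in medium with serum and LIF. The number of clones behind the PPARγ/+ line, the promoter of the insert and any selection of the PbIP cells are not given in the sources used here. The series text calls the line inducible and names no inducing agent.

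Values are FPKM, the fragments on a gene relative to the length of its transcript and to the mapped fragments of the library, so that levels can be set side by side between genes. *Pparg* itself lay between 3.12 and 7.56 FPKM in the WT libraries and between 27.98 and 92.7 FPKM in the PPARγ/+ libraries. The difference was 2.57 ± 0.31 (SE, adjusted p = 0.00148) on 0d and 3.85 ± 0.31 (SE, adjusted p = 0.000173) on 5d on the log2 scale. Each library held 11391 to 11634 genes at 1 FPKM or more. Of the muscle markers, all 9 were at 1 FPKM or more in every library on 5d in both lines, and their summed level was 76.5 to 343 FPKM on 0d and 515 to 2320 FPKM on 5d. The library WT_5d replicate 3 stood apart from its group, with *Myog* at 90.01 FPKM against 271 and 215 FPKM in replicates 1 and 2. The cluster means and the Hox, Polycomb and retinoic acid calls that changed without it are given both ways, as are the marker calls between the lines on 5d. For genes other than Hox this was a choice made after the data were seen. Replicates were called biological by the study, but no source used here says that they were separate cultures, so that p-values measure only the spread between these libraries. In such bulk samples fewer cells of a type and less RNA per cell cannot be told apart.

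The paralogs of number 10 are shown here by sequence because they hold both the most abundant Hox transcript of these cells and a gene with next to no reads. Hox genes with the same number resemble each other most in the homeobox, the stretch of 180 bases that encodes the homeodomain. The homeoboxes of *Hoxc10* (chr15:102966796-102971893, plus strand), *Hoxa10* (chr6:52231197-52240854, minus strand) and *Hoxd10* (chr2:74691924-74695105, plus strand), all gene positions in GRCm38, were read from GENCODE M21 transcripts of that build. Capitals mark the bases that differ from *Hoxc10*.
Hoxc10: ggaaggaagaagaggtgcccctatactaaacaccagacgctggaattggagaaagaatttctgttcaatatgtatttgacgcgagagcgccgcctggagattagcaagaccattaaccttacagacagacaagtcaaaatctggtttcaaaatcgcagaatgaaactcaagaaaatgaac
Hoxa10: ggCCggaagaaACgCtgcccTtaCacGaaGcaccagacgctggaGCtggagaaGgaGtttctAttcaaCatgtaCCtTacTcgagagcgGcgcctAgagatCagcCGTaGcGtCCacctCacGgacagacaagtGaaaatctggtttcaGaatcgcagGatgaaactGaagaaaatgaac
Hoxd10: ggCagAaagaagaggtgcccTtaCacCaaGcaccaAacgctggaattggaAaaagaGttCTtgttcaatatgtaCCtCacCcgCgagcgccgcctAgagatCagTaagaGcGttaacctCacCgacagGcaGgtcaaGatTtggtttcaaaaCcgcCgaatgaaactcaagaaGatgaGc
*Hoxa10* differed from *Hoxc10* at 35 of 180 bases (80.6% identity) and *Hoxd10* at 31 (82.8% identity). Over all members, the homeoboxes of the 42 pairs with the same number were identical at 67.2% to 93.9% of bases (median 80.6%), and those of the other 699 pairs at 46.1% to 88.9% (median 60.6%). No pair of members without shared exons had an identical stretch of 75 bases or more in its transcripts, and 2 such pairs had one of 50 bases, *Hoxa6* with *Hoxb4* and *Hoxb9* with *Hoxc9*. Outside shared exons, any transcript stretch of 75 bases was thus held by a single Hox member.

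C2C12 cells held transcripts of the whole Hoxa and Hoxc clusters, little of Hoxb and next to nothing of Hoxd. All 11 Hoxa genes and all 9 Hoxc genes were above 0 in all 12 libraries. A mean of at least 1 FPKM in a group was reached by 10 Hoxa genes, with *Hoxa4* as the exception at 0.321 to 0.530 FPKM, by all 9 Hoxc genes, and by no Hoxb or Hoxd gene. Recovered as fragments, which gave whole numbers within 0.01 for all 30 members above 0, the 12 libraries together held 57844 fragments on Hoxc genes, 40112 on Hoxa, 417 on Hoxb and 7 on Hoxd. The highest Hoxb value was 0.542 FPKM, of *Hoxb6*, in a single PPARγ/+_0d library. The 7 Hoxd fragments fell on *Hoxd10* (3) and *Hoxd11* (4), with at most 1 of each gene in a library. The other 7 Hoxd genes and *Hoxb1* and *Hoxb9* had no fragment in any library, which at 3 fragments per library allows up to 0.0275 to 0.0867 FPKM by gene and library. This limit covers counting error only and takes the whole exonic length. Of that length, 62.8% in *Hoxd3* and 52.3% in *Hoxd4* is shared with other genes, each of this pair overlapping the other. For them the limit is too low if fragments on shared bases were not counted. Hoxd thus had 0 to 2 fragments per library in either line and on either day, and *Hoxd13*, a gene of the digits like *Hoxa13*, was among those with none.

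**Figure D1:**
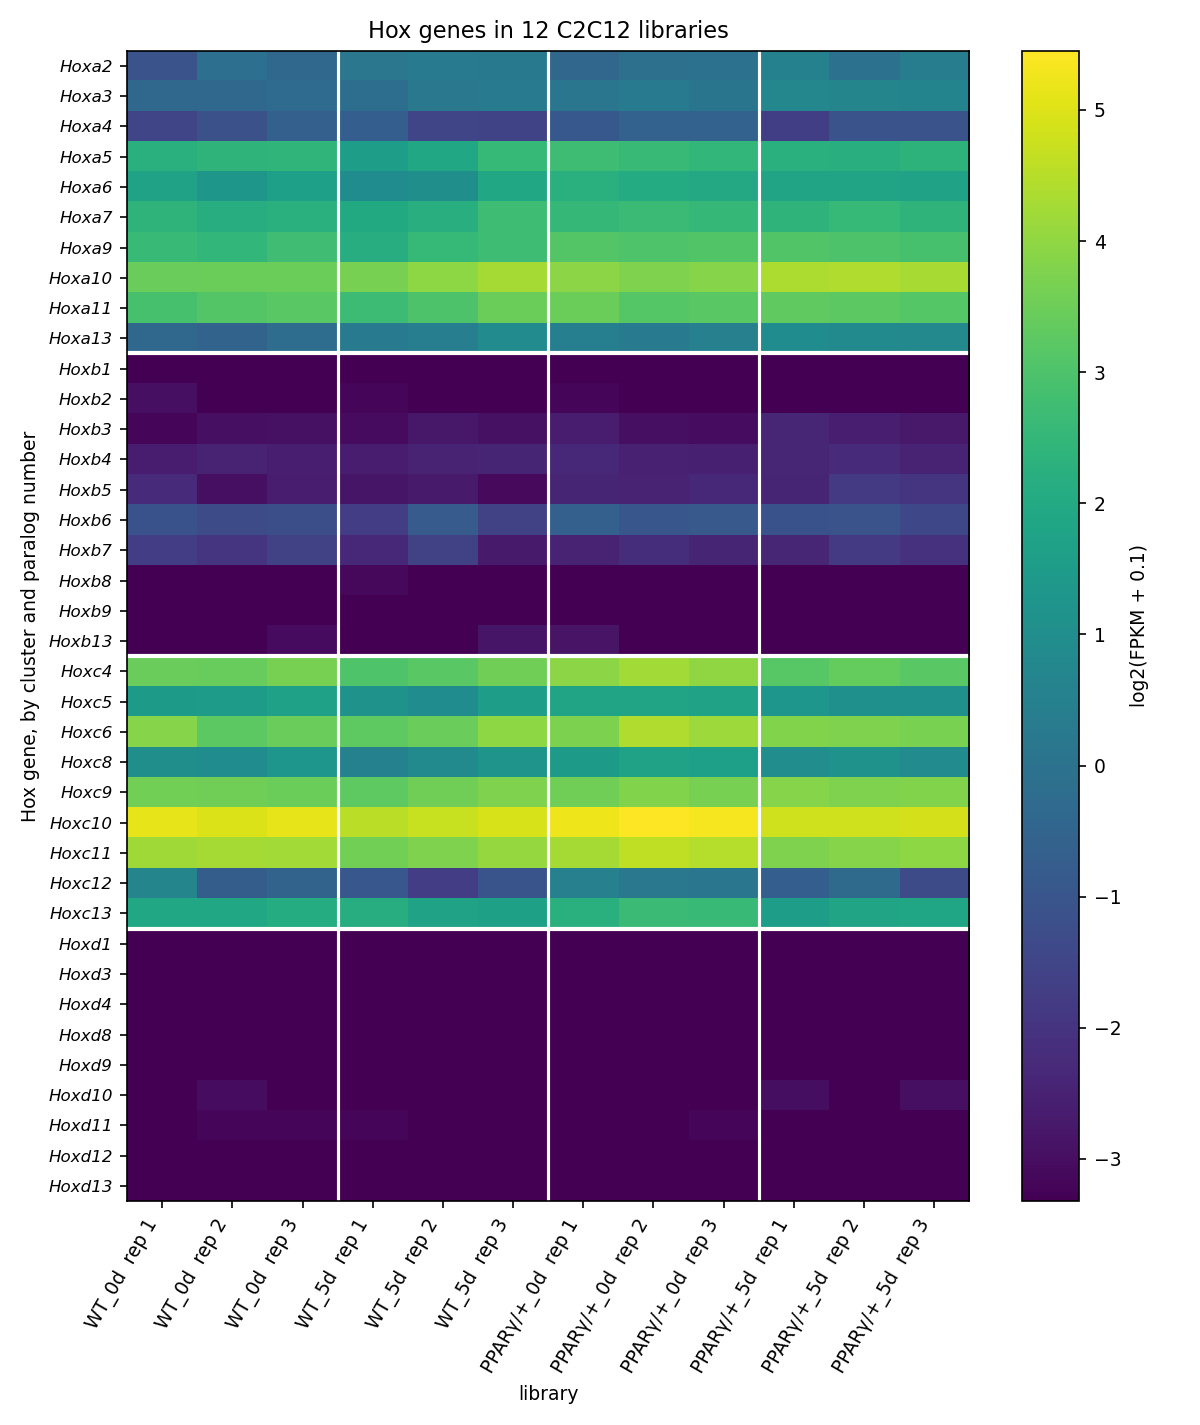
Level of Hox genes (rows, by cluster and paralog number) in each of the 12 libraries (columns), as log2(FPKM + 0.1) by colour, with white lines between clusters and between groups. The Hoxa and Hoxc blocks are brighter than the others in every library, with *Hoxa4* and *Hoxc12* as their darkest genes, *Hoxb6* is the brightest Hoxb gene, and the Hoxd block is dark throughout.

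The Hoxc cluster held most of the Hox RNA. Its summed level was 96.4 ± 4.87 FPKM in WT_0d, 81.2 ± 13.1 in WT_5d, 122 ± 13.5 in PPARγ/+_0d and 87.4 ± 1.42 in PPARγ/+_5d (mean ± SD, n = 3). The Hoxa cluster summed to 41.1 ± 2.09 FPKM in WT_0d, 46.0 ± 11.1 in WT_5d, 52.8 ± 2.54 in PPARγ/+_0d and 56.4 ± 1.48 in PPARγ/+_5d (SD, n = 3). As a share of all Hox FPKM, Hoxa took 28.4% to 30.5% of WT_0d libraries and 33.8% to 37.7% of WT_5d libraries, without overlap. In PPARγ/+ cells its share was 27.4% to 33.8% on 0d and 38.1% to 39.97% on 5d, again without overlap. Without WT_5d replicate 3 the WT_5d means were 74.02 FPKM for Hoxc and 40.02 FPKM for Hoxa, so that the Hoxa mean of WT_5d was then below that of WT_0d, whereas the shares are per library. These sums are given as a description and were not tested.

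Along the clusters the level did not follow the gene order evenly but peaked at paralog number 10 in both. Paralogs 9 to 13 together held 64.3% to 70.0% of the Hox FPKM of a library, paralogs 4 to 8 held 27.9% to 34.1%, and paralogs 1 to 3 held 1.28% to 2.60%. Over the 12 libraries the most abundant member was *Hoxc10* with a mean of 32.3 FPKM, above the next, *Hoxc11* (17.2 FPKM), in 12 of 12 libraries. *Hoxc11* exceeded *Hoxa10* (15.4 FPKM) in 6 of 12 libraries, namely all those of 0d, and lay below it in all those of 5d. The order among *Hoxa10*, *Hoxc6* (13.5), *Hoxc9* (12.4) and *Hoxc4* (11.7) held in 7 to 9 of 12 libraries from each gene to the next. These ranks over all libraries thus pool groups that can differ in order. For example, *Hoxc9* lay above *Hoxc4* in every 5d library and below it in every PPARγ/+_0d library. *Hoxc4* lay above *Hoxa11* (8.94 FPKM) in 11 libraries, and *Hoxa11* above *Hoxa9* (6.96 FPKM) in 12. From each of the next genes down to *Hoxa13*, namely *Hoxa7*, *Hoxa5*, *Hoxc13*, *Hoxa6*, *Hoxc5* and *Hoxc8*, the gene above exceeded the gene below in 9 to 12 libraries. The lowest of the 19 members that reached 1 FPKM in a group was *Hoxc12* (0.706 FPKM), a gene with low-count values of 4 to 33 fragments in a library.

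**Figure D2:**
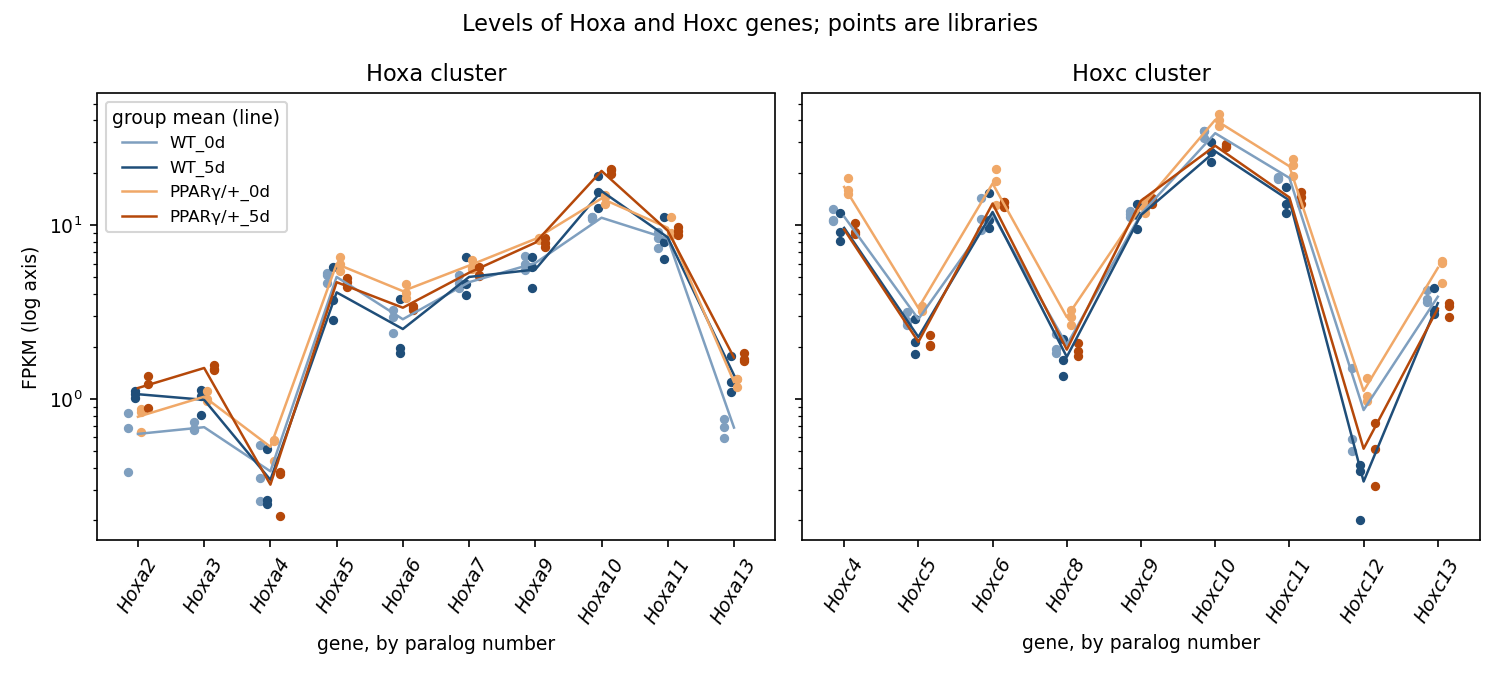
FPKM (log axis) of the Hoxa genes (left) and the Hoxc genes (right) in order of paralog number, with a point for each library and a line through the 3-library mean of each group. In both clusters the highest level is at number 10, and each 5d line lies above the 0d line of the same cells at *Hoxa10* and below it at *Hoxc10*.

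The 3′ genes of the Hoxa cluster, which pattern the hindbrain and the pharyngeal arches, were low. *Hoxa2*, a gene of the second pharyngeal arch, had 0.378, 0.826 and 0.681 FPKM in WT_0d, 1.02, 1.11 and 1.06 in WT_5d, 0.646, 0.843 and 0.877 in PPARγ/+_0d and 1.36, 0.891 and 1.21 in PPARγ/+_5d. *Hoxa3*, needed for thymus and parathyroid development, had 0.669, 0.659 and 0.733 FPKM in WT_0d, 0.809, 1.03 and 1.12 in WT_5d, 0.995, 1.12 and 0.975 in PPARγ/+_0d and 1.57, 1.48 and 1.46 in PPARγ/+_5d. The 5d libraries of both genes were above all those of 0d within each line. In the annotation, 1631 of the 6014 exonic bases of *Hoxa3* are shared with other transcripts on both strands, and the library kit does not mark strand. How fragments on shared bases were counted is not stated in the sources used here, so its value may be too high or too low.

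The middle Hoxa genes act in the neck and chest. *Hoxa5*, which patterns the cervical region and the lung, had 4.64, 5.17 and 5.27 FPKM in WT_0d, 2.84, 3.70 and 5.75 in WT_5d, 6.51, 5.95 and 5.47 in PPARγ/+_0d and 4.70, 4.41 and 4.96 in PPARγ/+_5d. *Hoxa6* had 3.24, 2.40 and 2.97 FPKM in WT_0d, 1.84, 1.96 and 3.77 in WT_5d, 4.59, 4.08 and 3.83 in PPARγ/+_0d and 3.42, 3.35 and 3.26 in PPARγ/+_5d. *Hoxa7* had 5.13, 4.31 and 4.63 FPKM in WT_0d, 3.94, 4.56 and 6.58 in WT_5d, 5.70, 6.27 and 5.57 in PPARγ/+_0d and 5.06, 5.74 and 5.15 in PPARγ/+_5d. For all 3 the WT_5d group was the widest, with its highest value in replicate 3, and overlapped WT_0d.

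The 5′ Hoxa genes act in the limbs and the lower trunk. *Hoxa9*, also a driver of leukaemia, had 5.99, 5.51 and 6.64 FPKM in WT_0d, 4.33, 5.76 and 6.55 in WT_5d, 8.46, 8.15 and 8.34 in PPARγ/+_0d and 8.39, 7.93 and 7.44 in PPARγ/+_5d. *Hoxa10*, which patterns the lumbar spine, the thigh and the uterus, had 10.8, 11.1 and 11.2 FPKM in WT_0d, 12.5, 15.5 and 19.1 in WT_5d, 14.96, 13.3 and 14.4 in PPARγ/+_0d and 20.8, 20.9 and 19.8 in PPARγ/+_5d. *Hoxa11*, which patterns the forearm and the lower leg, had 7.42, 8.41 and 9.18 FPKM in WT_0d, 6.37, 7.95 and 11.2 in WT_5d, 11.1, 8.79 and 9.03 in PPARγ/+_0d and 9.76, 9.25 and 8.80 in PPARγ/+_5d. All PPARγ/+ libraries of *Hoxa9* were above all WT libraries, all groups of *Hoxa10* were apart except WT_5d and PPARγ/+_0d, and the groups of *Hoxa11* overlapped, with 800 of its 2287 exonic bases shared with *Hoxa11os* on the other strand. *Hoxa13*, the digit gene, had 0.688, 0.593 and 0.769 FPKM in WT_0d, 1.10, 1.26 and 1.76 in WT_5d, 1.29, 1.16 and 1.30 in PPARγ/+_0d and 1.83, 1.69 and 1.65 in PPARγ/+_5d. Every library of *Hoxa13* outside WT_0d was above all 3 libraries of WT_0d.

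In the Hoxc cluster the 3′ and middle genes act in the neck and the chest. *Hoxc4* had 10.7, 10.5 and 12.3 FPKM in WT_0d, 8.10, 9.10 and 11.7 in WT_5d, 15.1, 18.7 and 15.9 in PPARγ/+_0d and 8.94, 10.2 and 9.14 in PPARγ/+_5d. *Hoxc5* had 2.67, 2.81 and 3.15 FPKM in WT_0d, 2.12, 1.81 and 2.87 in WT_5d, 3.42, 3.35 and 3.22 in PPARγ/+_0d and 2.33, 2.03 and 2.02 in PPARγ/+_5d. *Hoxc6* had 14.3, 9.40 and 10.9 FPKM in WT_0d, 9.60, 10.7 and 15.4 in WT_5d, 13.1, 20.96 and 17.97 in PPARγ/+_0d and 13.6, 13.5 and 12.8 in PPARγ/+_5d. The PPARγ/+_0d libraries of *Hoxc4* and *Hoxc5* were above those of every other group, and those of *Hoxc6* overlapped the rest. *Hoxc8*, a gene of the lower chest and of spinal motor neurons, had 1.95, 1.83 and 2.35 FPKM in WT_0d, 1.34, 1.68 and 2.20 in WT_5d, 2.65, 3.25 and 2.96 in PPARγ/+_0d and 1.89, 2.10 and 1.77 in PPARγ/+_5d. *Hoxc9*, which also acts in the thoracic spinal cord, had 11.99, 11.6 and 11.2 FPKM in WT_0d, 9.48, 11.5 and 13.3 in WT_5d, 11.7, 13.7 and 12.5 in PPARγ/+_0d and 14.2, 13.3 and 13.9 in PPARγ/+_5d. *Hoxc8* was highest in PPARγ/+_0d, without overlap, whereas *Hoxc9* stayed between 9.48 and 14.2 FPKM in all libraries, with PPARγ/+_5d above both WT groups and the other groups overlapping.

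The 5′ Hoxc genes act in the lower trunk and the hind limb. *Hoxc10*, which is on in the hind limb and off in the forelimb, had 34.9, 31.6 and 34.8 FPKM in WT_0d, 23.1, 26.3 and 30.2 in WT_5d, 37.03, 43.7 and 40.2 in PPARγ/+_0d and 28.04, 28.4 and 29.3 in PPARγ/+_5d. *Hoxc11* had 18.3, 18.99 and 18.7 FPKM in WT_0d, 11.8, 13.3 and 16.6 in WT_5d, 19.04, 24.1 and 22.3 in PPARγ/+_0d and 13.3, 14.4 and 15.6 in PPARγ/+_5d. *Hoxc12* had 1.5, 0.4999 and 0.587 FPKM in WT_0d, 0.419, 0.201 and 0.383 in WT_5d, 1.31, 1.04 and 0.977 in PPARγ/+_0d and 0.514, 0.722 and 0.313 in PPARγ/+_5d. On 5d the libraries of all 3 were below those of 0d in the same line, and the CV of *Hoxc12* in WT_0d was 64.3%. *Hoxc13*, a gene of hair and nails, had 3.75, 3.62 and 4.23 FPKM in WT_0d, 4.32, 3.26 and 3.07 in WT_5d, 4.66, 6.25 and 6.09 in PPARγ/+_0d and 2.94, 3.42 and 3.56 in PPARγ/+_5d. It was highest in PPARγ/+_0d, without overlap with the other groups. *Hoxc10* and *Hoxc5* share 166 exonic bases on the same strand, 8.70% of *Hoxc10* and 5.37% of *Hoxc5*.

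**Figure D3:**
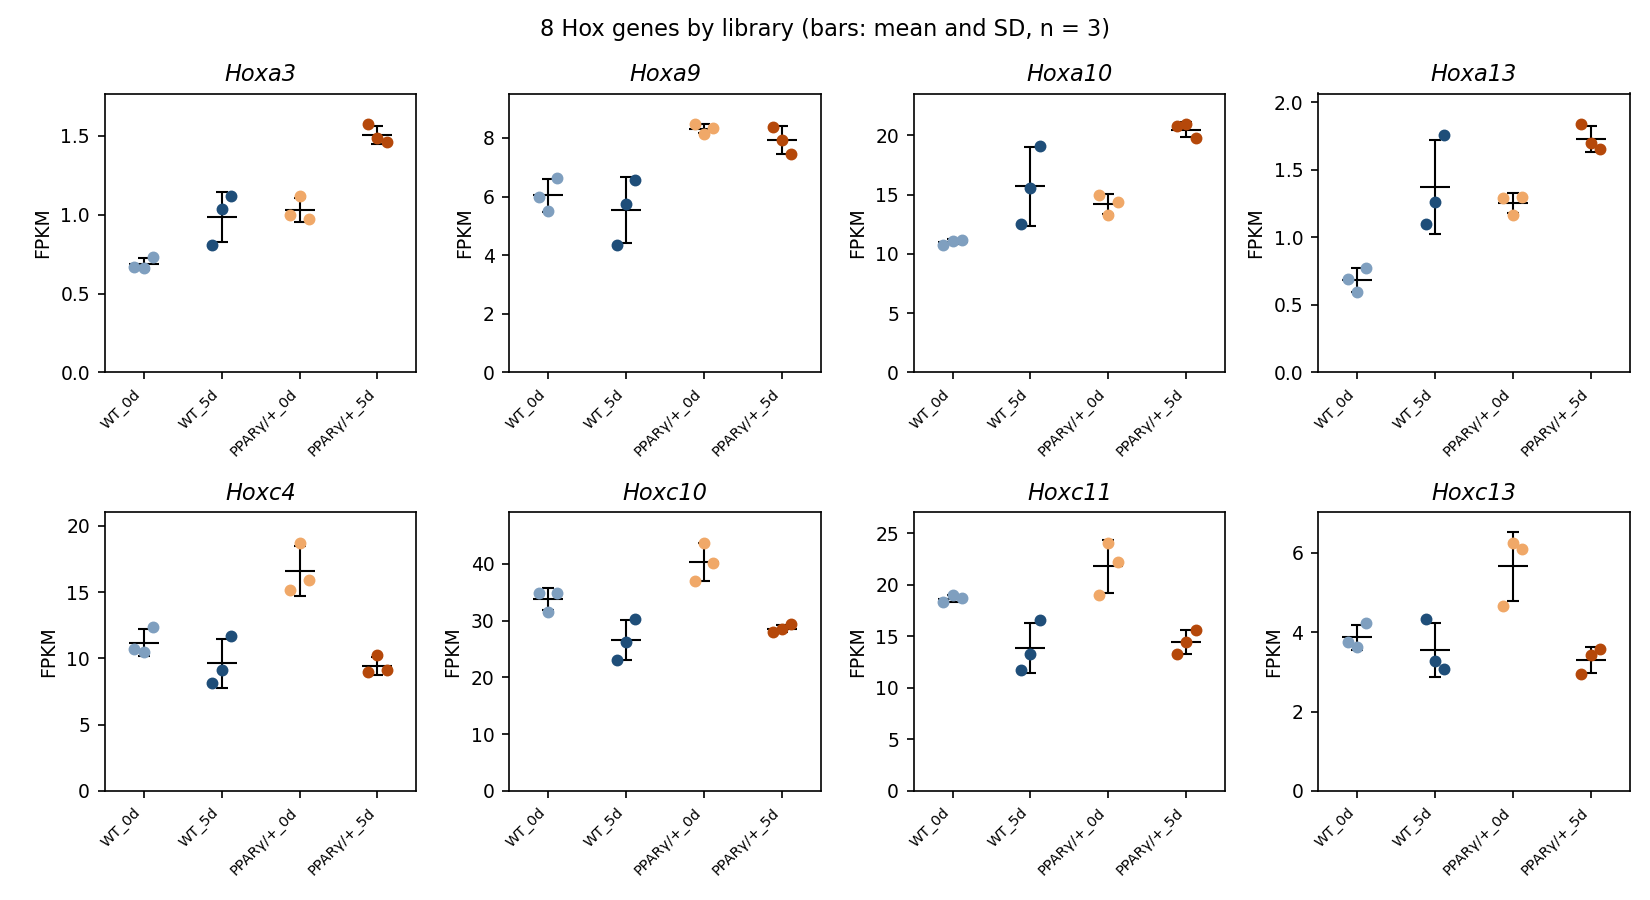
FPKM of 8 Hox genes by library (points), with the mean and SD of each group (bars, n = 3). *Hoxa10* and *Hoxa3* lie higher on 5d than on 0d in both lines, *Hoxc10* and *Hoxc11* lie lower, and *Hoxc4* and *Hoxc13* are highest in PPARγ/+_0d.

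The first question was whether Hox RNA changed as WT cells differentiated, from WT_0d to WT_5d. No member (0 of 23) passed the cut-offs of the study for the days, an unadjusted p of at most 0.05 and at least 2-fold, while 16.5% of the 18023 genes tested did. Of the 39 members 23 could be tested, all of Hoxa and Hoxc and *Hoxb5*, *Hoxb6* and *Hoxb7*, since the others did not reach 0.1 FPKM in 3 libraries. Of the 23, 6 had an unadjusted p of at most 0.05, against 46.8% of all genes. Since most members moved by less than 2-fold, a second reading at a Benjamini-Hochberg adjusted p of at most 0.05 with no fold threshold was added after seeing the data. By it 4 of 23 members, or 17.4%, changed, against 37.1% of all genes. *Hoxa10* rose, with a log2 fold change of 0.48 ± 0.15 (SE, adjusted p = 0.0478). *Hoxa13* rose by 0.89 ± 0.22 (SE, adjusted p = 0.0220). *Hoxc10* had a change of -0.35 ± 0.11 (SE, adjusted p = 0.0491) and *Hoxc11* of -0.44 ± 0.13 (SE, adjusted p = 0.0375), and both fell. For *Hoxa13* this was a rise of 1.85-fold, from a mean of 0.683 to 1.37 FPKM. The others with an unadjusted p of at most 0.05 were *Hoxa2* with 0.73 ± 0.27 (SE, adjusted p = 0.0822) and *Hoxa3* with 0.46 ± 0.19 (SE, adjusted p = 0.101). *Hoxc12* passed 2-fold but not the p, with -1.04 ± 0.44 (SE, adjusted p = 0.108). All fold changes are on the scale of FPKM + 0.1, which draws those of low genes toward 0. Over the 23 members the log2 fold changes had a median of -0.14 against -0.08 over all genes, and the libraries of the 2 days did not overlap for 7 members, or 30.4%, against 51.1% of all genes.

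These WT results depended on single libraries. At the cut-offs of the study 1 member was called without WT_0d replicate 2 or without WT_5d replicate 1. At the adjusted p alone, leaving out any WT_0d library, or WT_5d replicate 2, ended all 4, and leaving out WT_5d replicate 1 left 2. Without WT_5d replicate 3, which had the highest value of its group in 16 of the 19 members that reached 1 FPKM, 7 of 23 members changed against 37.9% of all genes, *Hoxa13* rising and *Hoxa5*, *Hoxa6*, *Hoxc4*, *Hoxc5*, *Hoxc10* and *Hoxc11* falling. In that fit *Hoxc11* changed by -0.58 ± 0.08 (SE, adjusted p = 0.00450) and *Hoxa10* was at 0.33 ± 0.11 (SE, adjusted p = 0.0634). The CV of the members in WT_5d had a median of 21.0%, against 6.03% to 9.07% in the other groups. Under median-ratio scaling 3 members were higher and 0 lower in place of 2 and 2, and that scaling moved the median of all genes from -0.08 to 0.02 here and from -0.10 to 0.02 in the PPARγ/+ cells.

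In the PPARγ/+ cells, where the same question was asked of PPARγ/+_5d against PPARγ/+_0d, the Hoxc cluster fell. *Hoxc12* was the only member called at the cut-offs of the study, against 15.2% of all genes, with -1.02 ± 0.27 (SE, adjusted p = 0.0211) and 22 to 33 fragments on 0d against 6 to 16 on 5d. That call ended at a pseudocount of 1, under median-ratio scaling, under array weights, and without PPARγ/+_0d replicate 1 or PPARγ/+_5d replicate 3. At the adjusted p alone, 13 of 23 members changed, 56.5% against 47.5% of all genes, and this share is near the background. Of the 13, 3 rose and 10 fell, against 18.8% and 28.8% of all genes in these directions. Under median-ratio scaling 5 rose and 7 fell, and without PPARγ/+_5d replicate 1 the number that changed was 8.

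Of the 9 Hoxc genes 7 fell at the adjusted p alone, against 28.8% of all genes. Under median-ratio scaling and under quantile normalization 7 fell also, and the shares of all genes that fell there are not given here. *Hoxc4* fell by 1.75-fold, with a log2 fold change of -0.80 ± 0.10 (SE, adjusted p = 0.000702). *Hoxc13* changed by -0.75 ± 0.14 (SE, adjusted p = 0.00416) and *Hoxc5* by -0.63 ± 0.09 (SE, adjusted p = 0.00188). *Hoxc8* changed by -0.59 ± 0.12 (SE, adjusted p = 0.00593) and *Hoxc11* by -0.59 ± 0.10 (SE, adjusted p = 0.00336). *Hoxc10*, the most abundant member, fell by 1.40-fold, with -0.49 ± 0.07 (SE, adjusted p = 0.00135). The exceptions were *Hoxc6* with -0.36 ± 0.16 (SE, adjusted p = 0.114) and *Hoxc9* with 0.13 ± 0.07 (SE, adjusted p = 0.188). *Hoxc9* rose under median-ratio scaling, with 0.26 ± 0.06 (SE, adjusted p = 0.0129), and under quantile normalization, with 0.27 ± 0.06 (SE, adjusted p = 0.0142). For the Hoxc genes the log2 fold changes had a median of -0.59, against -0.10 over all genes. The 0d and 5d libraries did not overlap for the 7 genes that fell, and over all 23 members they did not overlap for 16, or 69.6%, against 58.1% of all genes.

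The Hoxa genes did not move as a block. *Hoxa10* rose, with 0.52 ± 0.06 (SE, adjusted p = 0.000637). *Hoxa3* had 0.51 ± 0.12 (SE, adjusted p = 0.0121) and *Hoxa13* had 0.44 ± 0.11 (SE, adjusted p = 0.0182), and both rose. *Hoxa5* with -0.34 ± 0.09 (SE, adjusted p = 0.0187) and *Hoxa6* with -0.30 ± 0.09 (SE, adjusted p = 0.0308) fell, but neither kept an adjusted p of at most 0.05 under median-ratio scaling. Of the rest, *Hoxa2* had 0.49 ± 0.20 (SE, adjusted p = 0.0877) and *Hoxa4* had -0.60 ± 0.24 (SE, adjusted p = 0.0789). *Hoxa7* with -0.14 ± 0.08 (SE, adjusted p = 0.223), *Hoxa9* with -0.07 ± 0.06 (SE, adjusted p = 0.405) and *Hoxa11* with -0.05 ± 0.10 (SE, adjusted p = 0.723) lay near 0, and the signs of *Hoxa9* and *Hoxa11* flipped under another scaling. Of all 19 values with an adjusted p of at most 0.05 in the 4 comparisons between groups, 8 kept it under every alternative tried, and all 8 belonged to this comparison, namely *Hoxa3*, *Hoxa10*, *Hoxc4*, *Hoxc5*, *Hoxc8*, *Hoxc10*, *Hoxc11* and *Hoxc13*.

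The opposite course of the paralogs 10 can be read as a ratio within each library, which no scaling of a library alters. *Hoxa10* stood at 0.309 to 0.351 of the *Hoxc10* FPKM in WT_0d and at 0.540 to 0.630 in WT_5d. In the PPARγ/+ cells it stood at 0.305 to 0.404 on 0d and at 0.674 to 0.741 on 5d. In both lines the ratio on 5d was above that on 0d in every library, and on 5d every PPARγ/+ library was above every WT library. The ratio is a description, chosen after the values of both genes were seen.

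Markers moved with the days as well. The adipocyte list (*Adipoq*, *Cfd*, *Plin1*, *Fabp4* and *Lep*) summed to at most 0.0794 FPKM in the WT libraries, to 2.79 to 4.73 in PPARγ/+_0d and to 13.1 to 65.9 in PPARγ/+_5d, with 4 of its 4 tested genes higher on 5d than on 0d in the PPARγ/+ cells and *Lep* at 0 in all libraries. The muscle list summed to 173 to 343 FPKM in WT_0d, 552 to 2320 in WT_5d, 76.5 to 112 in PPARγ/+_0d and 515 to 621 in PPARγ/+_5d. From 0d to 5d, 6 of its 9 genes were called higher and 1 lower in WT cells, against 16.5% of all genes called. The lower one was *Myf5*, at 11.3 to 13.2 FPKM in WT_0d and 3.53 to 5.96 in WT_5d. In PPARγ/+ cells 8 were called higher and 0 lower, against 15.2% of all genes called. The part of either list in the Hox values was not tested. Of other cell types, the endothelial list summed to at most 0.115 FPKM in any library, and the leukocyte list to 2.001 to 5.09 FPKM, nearly all of it *Cd68*, with *Ptprc* at no more than 0.00649 FPKM. The keratinocyte list, nearly all *Krt14*, summed to 15.3 to 36.8 FPKM on 0d and 6.71 to 10.03 FPKM on 5d.

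**Figure D4:**
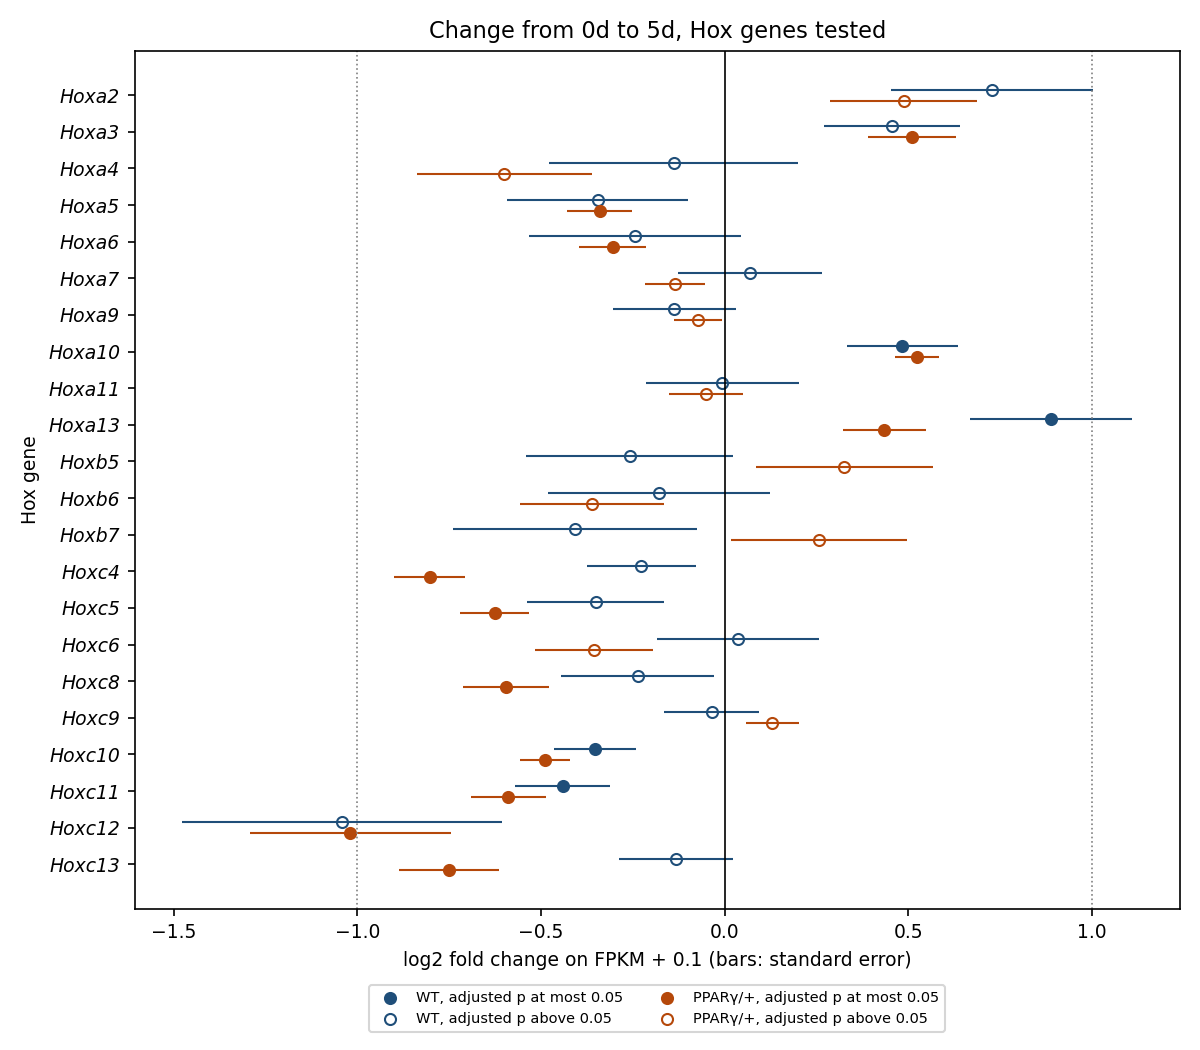
Log2 fold change from 0d to 5d with its standard error for Hox genes tested, in WT cells (blue) and in PPARγ/+ cells (orange), filled where the adjusted p of limma was at most 0.05, with dotted lines at 2-fold. Most Hoxc genes lie left of 0 in both lines, *Hoxa10*, *Hoxa3* and *Hoxa13* lie right of 0 in both, and the bars are wider in WT cells.

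Whether the course over the days differed between the lines was tested directly by the interaction of line with day, fitted to all 12 libraries. No member had an adjusted p of at most 0.05 in limma, against 0.76% of all genes, and 3 had an unadjusted p of at most 0.05, against 12.01% of all genes. Among them were *Hoxc4* with -0.58 ± 0.19 (SE, adjusted p = 0.229) and *Hoxc13* with -0.62 ± 0.21 (SE, adjusted p = 0.263), each lower in its change in the PPARγ/+ cells. For *Hoxc10* and *Hoxa10* the coefficients were -0.14 ± 0.14 (SE, adjusted p = 0.754) and 0.04 ± 0.17 (SE, adjusted p = 0.948). A fall of Hoxc genes particular to the PPARγ/+ cells was thus not shown, and a p above the threshold does not show that the lines moved alike. With array weights, 2 members had an adjusted p of at most 0.05, and the share of all genes with these weights is not given here.

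Before differentiation, PPARγ/+_0d against WT_0d, 22 of the 23 Hox genes tested stood somewhat higher in the PPARγ/+ cells, though few passed the test. No member was called at an adjusted p of at most 0.05 and at least 2-fold, the rule for this comparison, against 1.96% of all genes. At the adjusted p alone 2 of 23 members were higher, *Hoxa13* with 0.79 ± 0.17 (SE, adjusted p = 0.0225) and *Hoxc4* with 0.56 ± 0.13 (SE, adjusted p = 0.0331), against 5.58% of all genes. That number fell to 0 without WT_0d replicate 2, PPARγ/+_0d replicate 2 or PPARγ/+_0d replicate 3, and to 1 without WT_0d replicate 1. It went to 10 with array weights, for which the share of all genes is not given here. The log2 fold change was above 0 for 22 of the 23 members under each scaling tried, *Hoxb7* being the exception with -0.57 ± 0.30 (SE, adjusted p = 0.303). The share of all genes above 0 is not given here. The median over the members was 0.38, against 0.02 over all genes. For 15 members the libraries of PPARγ/+_0d were all above those of WT_0d, 8 of them Hoxa, 6 Hoxc and 1 Hoxb, and for *Hoxb7* they were all below. Of all genes 13.7% lay higher without overlap. A total of 11 members had an unadjusted p of at most 0.05, against 21.3% of all genes.

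Among the 11, *Hoxc6* had 0.58 ± 0.21 (SE, adjusted p = 0.132) and *Hoxc13* had 0.53 ± 0.15 (SE, adjusted p = 0.0674). *Hoxa3* was at 0.52 ± 0.14 (SE, adjusted p = 0.0617), *Hoxa9* at 0.46 ± 0.13 (SE, adjusted p = 0.0682) and *Hoxa10* at 0.36 ± 0.12 (SE, adjusted p = 0.110). *Hoxc10* had 0.25 ± 0.10 (SE, adjusted p = 0.156). The summed Hoxc level of PPARγ/+_0d was spread over 13.5 FPKM (SD), and *Hoxc6* alone ran from 13.1 to 21.0 FPKM. The adipocyte list had 2 of 4 tested genes higher and the muscle list 2 of 9 lower in PPARγ/+_0d than in WT_0d, and their part in these values was not tested.

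On day 5, PPARγ/+_5d against WT_5d, no member was called at the adjusted p with 2-fold (1.1% of all genes) or at the adjusted p alone (1.63% of all genes), and 5 had an unadjusted p of at most 0.05 in limma, against 15.3% of all genes. These were *Hoxa3* with 0.57 ± 0.14 (SE, adjusted p = 0.0786), *Hoxa9* with 0.52 ± 0.13 (SE, adjusted p = 0.0763), *Hoxa10* with 0.40 ± 0.12 (SE, adjusted p = 0.138), *Hoxb5* with 0.80 ± 0.27 (SE, adjusted p = 0.187) and *Hoxc9* with 0.29 ± 0.11 (SE, adjusted p = 0.238). For the same 5 the PPARγ/+_5d libraries were all above those of WT_5d, 21.7% of the members against 10.2% of all genes. *Hoxb5* held 1 to 3 fragments in a WT_5d library and 5 to 11 in a PPARγ/+_5d library, so that its change rests on few fragments.

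This result turned on the library that stood apart. Without WT_5d replicate 3, 7 of 23 members were higher in PPARγ/+_5d and none lower, against 12.3% of all genes changed in that fit, and 6 of the 7 were Hoxa genes. *Hoxa10* was then at 0.55 ± 0.09 (SE, adjusted p = 0.00401), *Hoxa9* at 0.65 ± 0.12 (SE, adjusted p = 0.00765) and *Hoxa6* at 0.79 ± 0.13 (SE, adjusted p = 0.00465). *Hoxa3* was at 0.66 ± 0.15 (SE, adjusted p = 0.0199), *Hoxa5* at 0.52 ± 0.12 (SE, adjusted p = 0.0236) and *Hoxa13* at 0.52 ± 0.15 (SE, adjusted p = 0.0473). The only Hoxc gene among them was *Hoxc9*, with 0.40 ± 0.09 (SE, adjusted p = 0.0214). Marker calls changed in that fit too. The muscle markers *Des*, *Ckm*, *Tnnt3*, *Chrna1* and *Cdh15* were called lower in PPARγ/+_5d and *Cfd* of the adipocyte list higher, none of them called with all libraries. The other muscle markers were not called, and *Myf5* lay above 0. The part of these markers in the Hox values was not tested. With array weights on all 12 libraries, 12 members had an adjusted p of at most 0.05. The share of all genes with these weights is not given here, so this number has no background beside it. The comparisons of the days and of the lines share libraries, so that they are not separate observations of the same gene.

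**Figure D5:**
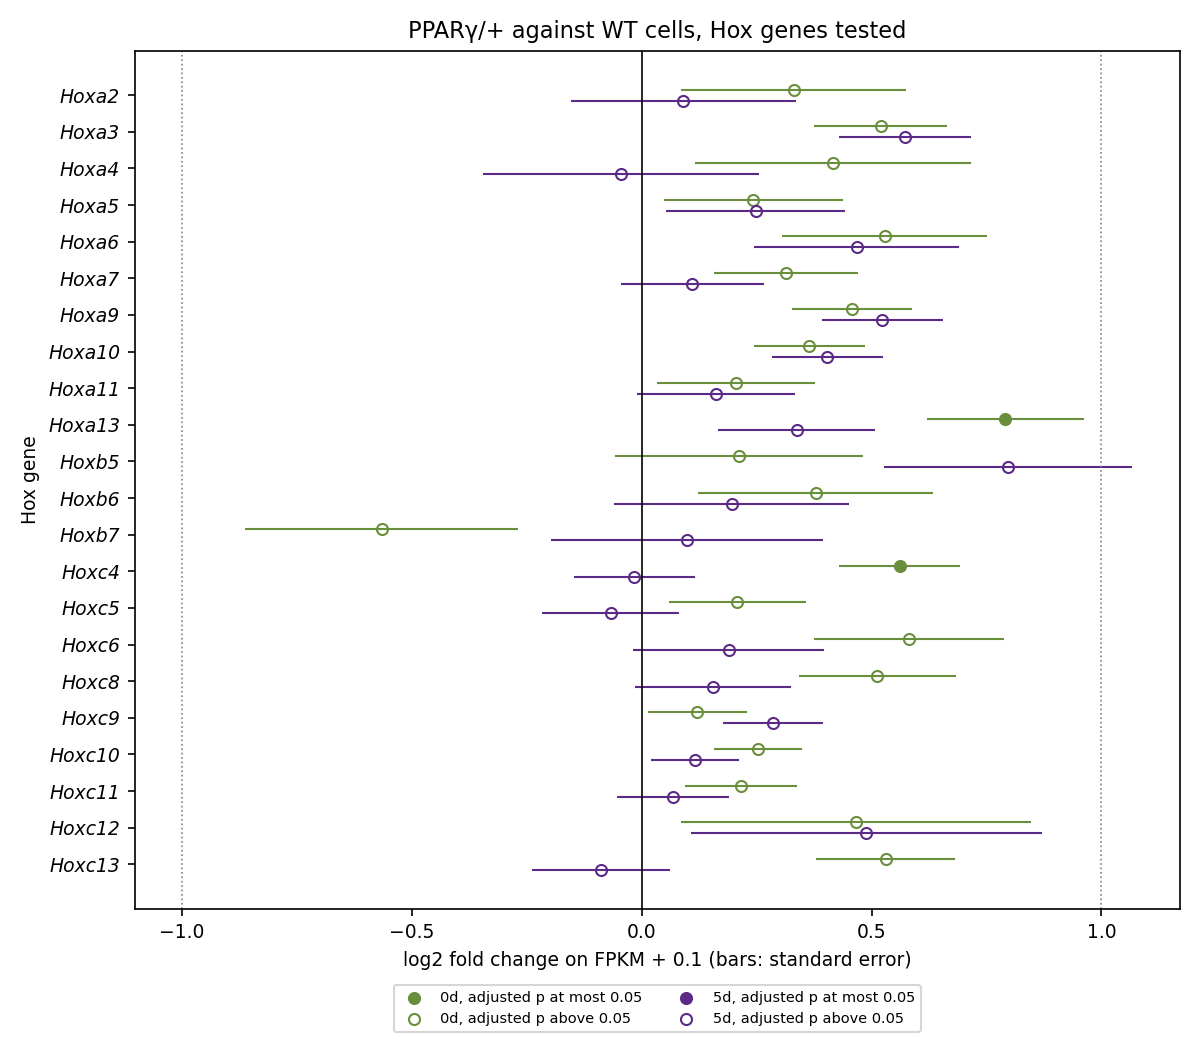
Log2 fold change of PPARγ/+ against WT cells with its standard error for Hox genes tested, on 0d (green) and on 5d (purple), filled where the adjusted p of limma was at most 0.05, with dotted lines at 2-fold. On 0d all genes drawn but *Hoxb7* lie right of 0 and *Hoxa13* and *Hoxc4* are filled, and on 5d none is filled.

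Hox proteins bind DNA together with TALE homeodomain cofactors of the Pbx, Meis and Pknox families. All 11 cofactor genes listed were tested. For this list and those below, the share of all genes called from 0d to 5d was 16.5% in WT and 15.2% in PPARγ/+ cells. *Pknox2* rose from 0d to 5d in WT cells with 1.15 ± 0.29 (SE, adjusted p = 0.0232) and in PPARγ/+ cells with 1.99 ± 0.21 (SE, adjusted p = 0.000390), and it was lower in PPARγ/+_0d than in WT_0d with -1.44 ± 0.25 (SE, adjusted p = 0.00907). *Meis2* fell in WT cells with -1.08 ± 0.11 (SE, adjusted p = 0.000905), from 5.64, 5.55 and 4.86 FPKM to 2.30, 2.5 and 2.60 FPKM. In the PPARγ/+ cells it went from 2.77, 2.997 and 2.93 FPKM to 2.57, 2.51 and 2.73 FPKM, with -0.15 ± 0.09 (SE, adjusted p = 0.196). These courses differed, with an interaction of 0.94 ± 0.13 (SE, adjusted p = 0.0119). The other 9 cofactor genes were not called in any of the comparisons.

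Polycomb complexes hold silent Hox clusters in place through methylation of histone H3 at lysine 27, and MLL complexes counter them. Of 28 Polycomb genes, all tested, 2 were called in each line and both fell from 0d to 5d. Of all genes, 16.5% were called over the days in WT and 15.2% in PPARγ/+ cells, so these calls do not mark the list as a whole. *Ezh2*, a methyltransferase, changed by -1.49 ± 0.11 (SE, adjusted p = 0.000324) in WT and -1.44 ± 0.09 (SE, adjusted p = 6.51e-05) in PPARγ/+ cells. *Phf19*, which recruits the complex, changed by -2.74 ± 0.22 (SE, adjusted p = 0.000402) and -2.86 ± 0.16 (SE, adjusted p = 4.2e-05). *Ezh1*, the related methyltransferase, was named after its values were seen and was not called, but it lay higher on 5d without overlap. It had 5.47 to 8.09 FPKM in WT_0d and 10.8 to 12.5 in WT_5d. In PPARγ/+ cells it had 6.90 to 9.80 FPKM on 0d and 13.8 to 15.2 on 5d. Of 14 genes of MLL complexes, their partners and H3K27 demethylases only *Dpy30*, a core subunit, was called, and it changed by -1.0 ± 0.09 (SE, adjusted p = 0.000553) and -1.07 ± 0.05 (SE, adjusted p = 2.41e-05). Between the lines none of these genes was called on either day. Without WT_5d replicate 3 the Polycomb gene *Cbx2*, named after its values were seen, was also called in WT cells, with -1.02 ± 0.12 (SE, adjusted p = 0.00305), and for the interaction, with 0.89 ± 0.17 (SE, adjusted p = 0.0234). The Hoxd genes had at most 2 fragments in any library of either day. Whether the changes of Polycomb and MLL genes bear on any Hox gene was not tested.

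Retinoic acid switches on Hox genes through its receptors, and Cdx factors and Gdf11 act on the 5′ genes. Of 16 such genes 12 were tested, and 3 were called in each line from 0d to 5d, all higher. The shares of all genes were 16.5% in WT and 15.2% in PPARγ/+ cells. *Aldh1a1*, a retinal dehydrogenase that makes retinoic acid, rose by 2.44 ± 0.58 (SE, adjusted p = 0.0190) in WT and 2.27 ± 0.28 (SE, adjusted p = 0.000769) in PPARγ/+ cells. Its WT libraries were at 0.0502, 0.309 and 0.147 FPKM on 0d and at 0.708, 0.934 and 2.82 FPKM on 5d, the last of these being the library that stood apart, without which the change was 1.88 ± 0.46 (SE, adjusted p = 0.0295). *Cyp26a1*, which degrades it, rose by 1.90 ± 0.41 (SE, adjusted p = 0.0133) and 1.31 ± 0.30 (SE, adjusted p = 0.0110). The remaining gene was *Cdx1* in WT cells with 1.21 ± 0.35 (SE, adjusted p = 0.0369) and *Aldh1a3* in PPARγ/+ cells with 1.35 ± 0.19 (SE, adjusted p = 0.00132), both below 1 FPKM in every library of that comparison and named after their values were seen. Between the lines none was called with all libraries. Without WT_5d replicate 3, *Aldh1a1* was higher in PPARγ/+_5d than in WT_5d with 1.43 ± 0.40 (SE, adjusted p = 0.0457) and *Aldh1a3* lower with -1.14 ± 0.25 (SE, adjusted p = 0.0158), and *Aldh1a3* was also called from 0d to 5d in WT cells with 1.08 ± 0.29 (SE, adjusted p = 0.0384).

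The genes beside the clusters give a comparison for the chromosomal surroundings. Of 15 such genes 11 were tested, and the calls over the days stand beside 16.5% of all genes in WT and 15.2% in PPARγ/+ cells. *Hnrnpa1*, an RNA-binding protein gene near the Hoxc cluster, changed from 0d to 5d by -1.36 ± 0.09 (SE, adjusted p = 0.000255) in WT and -1.06 ± 0.10 (SE, adjusted p = 0.000234) in PPARγ/+ cells. *Calcoco1*, beside the same cluster, was called in WT cells with 1.05 ± 0.15 (SE, adjusted p = 0.00298) and had 0.89 ± 0.19 (SE, adjusted p = 0.00905) in PPARγ/+ cells. *Lnpk*, beside Hoxd, was called in PPARγ/+ cells with -1.01 ± 0.12 (SE, adjusted p = 0.000803) and had -0.98 ± 0.14 (SE, adjusted p = 0.00327) in WT cells. *Lnpk* was at 2.63 to 3.32 FPKM on 0d, next to a Hoxd cluster with almost no fragments. Of 18 noncoding RNAs in the clusters 8 were tested. *Halr1*, in the Hoxa region and named like *Hotair* after the values were seen, was called in both lines with 1.79 ± 0.50 (SE, adjusted p = 0.0319) and 1.43 ± 0.38 (SE, adjusted p = 0.0205), at no more than 0.687 FPKM. *Hotair*, transcribed from the other strand between *Hoxc11* and *Hoxc12*, was at 1.38 to 3.09 FPKM and was called in no comparison, and at the adjusted p alone it rose in PPARγ/+ cells with 0.77 ± 0.09 (SE, adjusted p = 0.000641).

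The promoters were compared by sequence from RefSeq windows of GRCm38.p6 that run from 250 bases before to 50 after a gene start. The table held 24 windows of 22 members, and only 1 of them belonged to a Hoxc gene. The windows of the transcribed Hoxa genes held a median of 17.5 CG dinucleotides (10 windows) and those of the Hoxd genes a median of 20 (10 windows), against 7 over all 32851 windows. Thus the near-silent Hoxd genes had windows no poorer in CG than Hoxa. The direct repeat of AGGTCA with 1 base between the copies, a form of the site that PPARγ binds with RXR, was searched on both strands and was in none of the 24 windows and in 0.0396% of all windows. The single AGGTCA, which each copy of the repeat also holds, was in 7 of the 24 against 16.3% of all windows, and CAGCTG, a form of the E-box that myogenic factors bind, in 4 of the 24 against 16.3%. No match in a window says nothing of binding elsewhere.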

How the data were processed

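Poly(A) RNA-seq libraries of C2C12 cells were analysed, 3 per group in 4 groups, and grouped by their labels. The deposited table holds FPKM values that the authors computed from HTSeq fragment counts after Trim Galore and STAR. The submitters' processing notes list STAR and mm9, whereas the methods of the study name an Ensembl annotation of GRCm38, and the FPKM values gave whole fragments with GRCm38 exon lengths. Fragments were recovered as FPKM times exonic length times the mapped read pairs that the study lists for each library, and this gave whole numbers within 0.01 for 78.7% of 26977 genes. The library kit does not mark strand.

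Of 46983 genes, 18023 with at least 0.1 FPKM in at least 3 libraries were tested on log2(FPKM + 0.1) with limma 3.58.1 (lmFit and eBayes with trend, R 4.3.3). The comparisons of days were fitted on their own 6 libraries and called at an unadjusted p of at most 0.05 and at least 2-fold, the cut-offs of the study. The comparisons of lines and the interaction were fitted on all 12 libraries with Benjamini-Hochberg adjusted p-values, adjusted over all genes tested. All adjusted p-values printed are of limma. Tested on simulated data with 18023 genes, 100 genes changed by 1.5 on the log2 scale were called in 96% for WT days, 99% for PPARγ/+ days, 96% for lines on 0d, 89% for lines on 5d and 86% for the interaction. The changed genes were drawn from the more abundant ones. The Hox changes reported were smaller than 1.5, and such changes were not simulated. These percentages therefore do not say how often a change of that size would be called.

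The Hox members and all gene lists were chosen with earlier results of these data known. Values in every library were given for members with a mean of at least 1 FPKM in a group, and from each list at most 3 genes per comparison, those called with the largest change and a mean of at least 1 FPKM in a group. The values of 1 Hoxa member are not reported or drawn here, though counts, sums and shares include it. Genes outside this rule are said to be so where they are named. Gene symbols came from GENCODE M21 (GRCm38) for 46488 identifiers, and 495 had none. Homeoboxes were found in the translated transcripts. Alternatives were other pseudocounts, filters and scalings, array weights, a replicate block, pooled or separate fits, and each library left out. Python 3.11.15 with pandas 2.3.3 and numpy 2.4.6 was used, and matplotlib 3.10.9 for plots.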

Additional observations from a re-analysis of the deposited data

Results flagged for a closer look

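*Meis2*, a cofactor of Hox proteins, changed differently over the days in the lines, with an interaction coefficient of 0.94 on the log2 scale in limma, a fall in the WT cells from 4.86 to 5.64 FPKM down to 2.30 to 2.60 FPKM against values of 2.51 to 2.997 FPKM in all PPARγ/+ libraries.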

How the results depend on the processing

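The Hox fold changes recomputed were the 40 with an unadjusted p of at most 0.05 in limma as reported. They gave 613 values under the alternatives. Of these, 505 kept their side of the adjusted p of 0.05, 76 lost it and 32 gained it. None reversed direction (0 of 613), but changes near 0 had been left out by this choice. Among those left out, the signs of *Hoxa9* and *Hoxa11* in PPARγ/+ cells flipped under another scaling. From WT_0d to WT_5d the number of members at the cut-offs of the study went from 0 to 1 under median-ratio scaling, quantile normalization, array weights, the replicate block and a fit of all 12 libraries. At the adjusted p alone it went from 4 to 2 at a pseudocount of 0.01 and under quantile normalization, to 1 without a filter and with the block, to 7 with all 12 libraries and to 10 with array weights. In PPARγ/+ cells the single call went to 0 at a pseudocount of 1, under median-ratio scaling and with array weights. For PPARγ/+_0d against WT_0d the 2 members at the adjusted p went to 1 without a filter and to 10 with array weights. For PPARγ/+_5d against WT_5d the number went from 0 to 1 at a pseudocount of 1 and to 12 with array weights, and with these weights 1 member also passed 2-fold, and 2 passed the interaction. The shares of all genes under these alternatives are not given here, so the numbers have no background beside them. The cause of these moves was not tested. With median-ratio scaling the summed Hoxa level was 49.6 FPKM in PPARγ/+_0d and 58.0 FPKM in PPARγ/+_5d, and that of Hoxc was 89.8 FPKM in PPARγ/+_5d.

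Leaving out 1 library at a time gave 0 to 1 members at the cut-offs of the study in each comparison of days, and 0 to 0 in the comparisons of lines and the interaction. At the adjusted p alone the numbers were 0 to 7 for WT days, 8 to 12 for PPARγ/+ days, 0 to 2 for PPARγ/+_0d against WT_0d and 0 to 7 for PPARγ/+_5d against WT_5d. The extremes were 7 without WT_5d replicate 3 in both comparisons that hold it, 0 without any WT_0d library or WT_5d replicate 2, 8 without PPARγ/+_5d replicate 1, and 0 without WT_0d replicate 2 or PPARγ/+_0d replicate 2 or 3. Without WT_5d replicate 3 the shares of all genes were 37.9% for WT days and 12.3% for PPARγ/+_5d against WT_5d. For the other fits they are not given here, so those numbers have no background beside them.

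No pairing by replicate number was seen, with the deviations of same-numbered libraries from their group means correlated at -0.07 to 0.08. With 3 libraries per group, these values cannot exclude that same-numbered libraries shared a culture or a day. With the replicate block the number at the adjusted p alone was 10 in PPARγ/+ cells and 1 in WT cells, and 0 and 2 between the lines on 5d and 0d. The shares of all genes with the block are not given here.

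Genes under about 30 fragments, such as *Hoxc12* and the Hoxb genes, are limited by counting, and the 3 libraries of a group limit all p-values.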
